A study of Mus musculus with 6 samples.

Results

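The TIM receptors are a small family of surface proteins, and 4 genes of the family had a row in the count table, out of 55414 gene identifiers: Havcr1 (TIM-1), Timd2 (TIM-2), Havcr2 (TIM-3) and Timd4 (TIM-4). They were chosen by symbol, starting from Havcr1, which had been picked out because its level differed so much between the groups. The levels of these genes in the 2 groups are therefore given as a description, without a test. The cells were AY-mICC, a mouse line named for intrahepatic cholangiocarcinoma, which is cancer of bile ducts within the liver. The labels give 3 control libraries (shCon, genotype control) and 3 libraries with a Copa knockdown (shCopa). Copa encodes a subunit of COPI, a vesicle coat for the return of proteins from the Golgi to the endoplasmic reticulum. All cells were grown in the same serum-containing medium, with no further treatment. The labels do not say how many hairpins, clones or separate cultures were used, so the p-values below measure only the spread between these libraries, which may be technical.

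TIM proteins carry an immunoglobulin-like domain on a mucin stalk. In TIM-1, TIM-3 and TIM-4 a pocket in that domain binds phosphatidylserine, a lipid that dying or activated cells turn to their outer surface. TIM-1 is best known as kidney injury molecule 1, which lets injured tubule cells engulf dead neighbours, and it is also found on activated lymphocytes. TIM-2 is a rodent protein that takes up ferritin and binds semaphorin 4A, TIM-3 is an inhibitory receptor of exhausted T cells, and TIM-4 is a receptor with which macrophages tether dying cells.

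Havcr1 and Timd2 are close relatives, and their sequences bear on how their reads can be told apart. Over the aligned positions of their longest coding sequences, 81.0% of bases were identical, against 60.0% to 64.5% for the other pairs of the family. The start of the coding sequence is shared letter for letter. The 50 coding bases shown next are the same in the annotated transcripts of both genes (GENCODE M21, build GRCm38), with the start codon at the left end:
Havcr1 and Timd2, shared coding start: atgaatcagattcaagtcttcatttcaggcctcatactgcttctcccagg
With the bases before the start codon, the longest run in common was 115 bases. Of 2306 distinct windows of 50 bases in Havcr1 transcripts, 77 also occurred in Timd2 transcripts (3.34%), and of 2306 windows of 100 bases 16 did (0.694%). No window of 25 bases was shared with Havcr2 or Timd4.

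The promoters of these neighbours were compared because Havcr1 and Timd2 were both higher in the knockdown. The RefSeq table (GRCm38.p6) holds 3 starts for Havcr1, 2 for Timd2 and 1 each for Havcr2 and Timd4. Timd2 lies on the minus strand and Havcr1 on the plus strand, with 33.1 kb between the first starts listed for each, so that they are read away from each other. The 250 bases before the first listed start are shown for both (Havcr1, chr11:46739973-46740222, plus strand; Timd2, chr11:46707105-46707354, minus strand). Capitals mark the longest run that Havcr1 shares with any Timd2 promoter window:
Havcr1: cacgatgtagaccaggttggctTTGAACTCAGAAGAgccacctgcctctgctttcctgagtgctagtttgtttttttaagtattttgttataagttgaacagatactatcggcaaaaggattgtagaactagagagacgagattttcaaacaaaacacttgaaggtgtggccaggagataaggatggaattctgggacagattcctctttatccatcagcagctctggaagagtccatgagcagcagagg
Timd2: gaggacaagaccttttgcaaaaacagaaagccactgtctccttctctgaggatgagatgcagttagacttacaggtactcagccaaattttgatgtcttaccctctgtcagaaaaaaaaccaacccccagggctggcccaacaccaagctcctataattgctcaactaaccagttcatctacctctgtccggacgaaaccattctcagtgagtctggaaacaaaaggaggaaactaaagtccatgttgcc
The run of 14 bases recurs at the other listed start of Timd2, 22 bases into the transcribed part, and in 2 of 32851 promoter windows in all. That count is of exact matches, and whether the run lies in a repeated element of the genome was not tested. A run of the same length is shared by Havcr1 and Timd4, so its length does not set Timd2 apart.

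Windows of 300 bases, 250 before to 50 after each start, were searched on both strands for 5 motifs. These were a pair of interferon regulatory factor cores (GAAANNGAAA), a STAT element (TTCNNNGAA), an AP-1 element (TGANTCA), a C/EBP-ATF composite (TGATGNAA) and the NF-kB consensus. None of the 3 windows of Havcr1 or the 2 of Timd2 held the interferon regulatory factor pair, the STAT element, the C/EBP-ATF composite or the NF-kB consensus. In that order, these occurred in 3.44%, 8.30%, 3.97% and 8.46% of all windows. The AP-1 letters, present in 7.81% of all windows, were found once in the window of the third Havcr1 start, where they overlap the start codon, and once in that of Havcr2. A match is only a description of the letters in the window.

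The groups were checked by the targeted gene and by cell type markers, in CPM, the usual scaling of counts by library size (sizes adjusted here by edgeR's TMM method). Copa had 419, 516 and 526 CPM in the controls against 186, 181 and 187 CPM in the knockdown, 37.9% of the control level by the fit. Library totals ran from 19634938 to 24546204 estimated counts. The library shCon 1 stood apart, at r = 0.9719 to 0.9734 across genes with its group, against 0.9888 to 0.9907 for all other replicate pairs, and without it the log2 fold change of Havcr1 was 5.58. Of 8 bile duct markers, all had counts, with a sum of 7625 to 10098 CPM in shCon and 5384 to 5855 CPM in shCopa, but Epcam and Cldn4 were at or below 0.789 CPM in every library. TIM genes are also known from lymphocytes and myeloid cells. Of 9 T and natural killer cell markers, Cd3d, Cd3g, Cd2 and Ncr1 had no count in any library, and the sum of the 9 was 0.0821 to 0.0928 CPM in shCon and 1.25 to 1.67 CPM in shCopa. Most of that sum was Ptprc, the pan-leukocyte phosphatase CD45, with 0, 1 and 1 counts in shCon and 21, 25 and 25 in shCopa. Of 5 B cell markers, all had a count, with a sum of 1.62 to 2.71 CPM in shCon and 1.28 to 2.02 CPM in shCopa. Of 10 myeloid markers, 9 had a count, with a sum of 277 to 286 CPM in shCon and 157 to 170 CPM in shCopa. Adgre1, Itgam, Itgax, Marco and Fcgr1, 5 of the 10, had fewer than 10 counts each over all 6 libraries. Most of the myeloid sum was Csf1r and Cd14, which fell from 165 ± 21.2 to 87.8 ± 1.10 CPM and from 102 ± 20.7 to 50.3 ± 4.81 CPM (edgeR adjusted p = 0.000885 and 0.00233). Lyz2, lysozyme, rose from 1.46 ± 0.332 to 8.20 ± 0.225 CPM (edgeR adjusted p = 0.000159), Ptprc, also on this list, rose as given above, and Cd68 did not pass. The part of such cells in the Havcr1 levels was not tested beyond these values.

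Havcr1 (ENSMUSG00000040405), the gene of TIM-1, was close to the detection limit in the control cells and clearly present after the knockdown. It had 10, 10 and 12 estimated counts in shCon 1 to 3 and 443, 504 and 512 in shCopa 1 to 3. This was 0.464, 0.429 and 0.493 CPM in shCon and 19.6, 21.8 and 25.9 CPM in shCopa. All 3 knockdown libraries stood far above all 3 controls. The means were 0.462 ± 0.0319 and 22.4 ± 3.19 CPM (SD, n = 3 each), and the fitted log2 fold change was 5.58 ± 0.19 (SE). From the summed counts, 32 against 1459, the ratio was 48.1, with an exact 95% counting interval of 33.9 to 70.6. Within shCopa, replicate 3 was 1.32 times as high as replicate 1, and their counting intervals, 23.7 to 28.2 and 17.8 to 21.5 CPM, did not overlap. Such intervals cover counting error only. In a bulk sample a higher level in every cell and the appearance of a few cells with a high level cannot be told apart.

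Timd2 (ENSMUSG00000040413), the gene of TIM-2, showed the same direction at a much lower level. Its estimated counts were 1, 0 and 1 in shCon and 22, 21 and 39 in shCopa, or 0.0464, 0 and 0.0411 CPM against 0.973, 0.907 and 1.97 CPM. The groups did not overlap, and shCopa 3 was again the highest library, at 2.17 times the lowest shCopa library. The summed counts, 2 against 82, gave a ratio of 43.3 with an exact counting interval of 11.6 to 363. In relation to Havcr1, the Timd2 counts were 4.97%, 4.17% and 7.62% of the Havcr1 counts in shCopa 1 to 3, 5.62% over those 3 libraries together and 6.25% over the 3 shCon libraries, where the latter share rests on 2 Timd2 counts. Whether part of the Timd2 counts are reads of Havcr1 was not tested, as the alignments and the read length were not used here. All 24 values of the 4 genes were whole numbers with no decimal part, while each library had 10.6% to 11.9% of values that were not whole. The Timd4 values were all 0, and these shares are over all identifiers, those at 0 included. Whole values do not show whether a shared read was given to Havcr1 or to Timd2.

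Havcr2 (ENSMUSG00000020399), the gene of TIM-3, was barely detected. It had 0, 3 and 2 estimated counts in shCon and 5, 12 and 9 in shCopa, or 0, 0.129 and 0.0821 CPM against 0.221, 0.518 and 0.455 CPM. Each shCopa library lay above each shCon library, but the lowest shCopa count and the highest shCon count were 5 and 3. The ratio of the summed counts, 5 against 26, was 5.49, with an exact counting interval of 2.07 to 18.3. Timd4 (ENSMUSG00000055546), the gene of TIM-4, had no count in any of the 6 libraries, which allows up to 0.123 to 0.152 CPM in a library by a limit of 3 counts.

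Havcr1, Timd2 and Havcr2, 3 of the 4 genes, had every shCopa library above every shCon library. Of the 14807 genes tested in the series, 27.2% had that pattern and 54.1% had groups without overlap in either direction. Nothing is read from that count, since the same contrast led to the choice of Havcr1. Havcr1 and Timd2 passed the filter on low counts, both of them through their shCopa libraries, while Havcr2 and Timd4 did not.

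**Figure D1:**
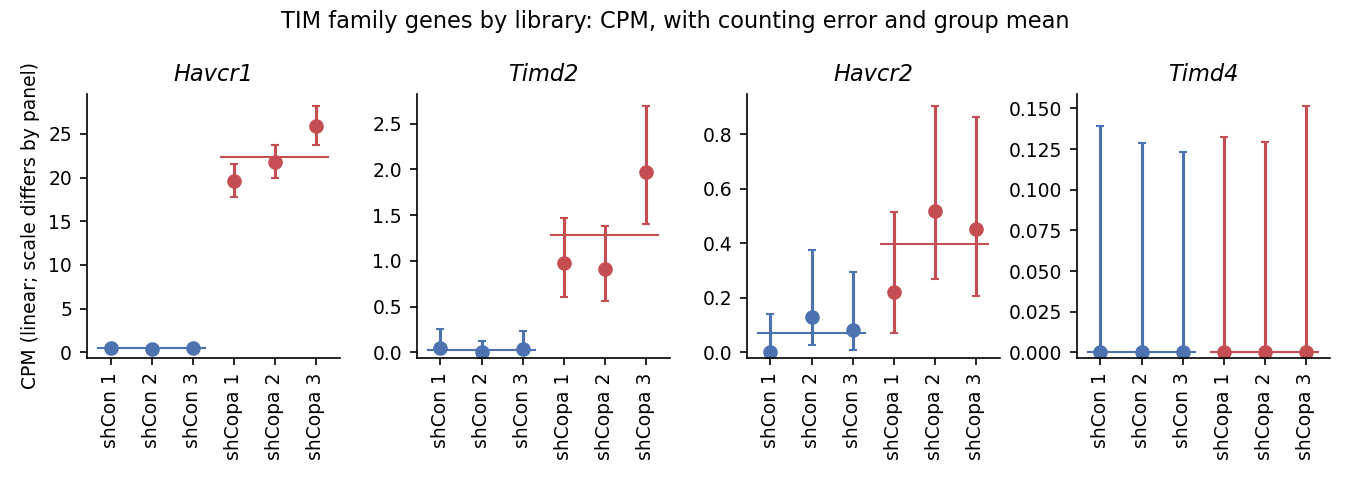
CPM of the 4 TIM family genes (vertical axis, linear, with its own scale in each panel) in the 3 shCon libraries (blue) and the 3 shCopa libraries (red); bars are exact 95% counting intervals, or reach the limit of 3 counts where the count is 0, and lines are group means. Havcr1 runs from 0.429 to 0.493 CPM in shCon and from 19.6 to 25.9 CPM in shCopa, Timd2 reaches 1.97 CPM, Havcr2 stays at or below 0.518 CPM and Timd4 is at 0.

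Levels of different genes can be compared only per transcript length, here as CPM per kb of the longest annotated transcript. In shCopa the order was Havcr1 at 11.0 ± 1.57, Timd2 at 0.439 ± 0.204, Havcr2 at 0.146 ± 0.0575 CPM per kb (SD, n = 3) and Timd4 at 0. On that scale Havcr1 gave 95.9%, 95.5% and 93.8% of the family's summed level in shCopa 1 to 3. Timd2 was 4.09, 1.63 and 4.03 times Havcr2 in the same libraries, so their order was the same in each, though in shCopa 2 it rested on 21 and 12 counts. In shCon, Havcr1 stood at 0.228 ± 0.0157 CPM per kb. Havcr2, at 0.0258 ± 0.0239, and Timd2, at 0.00996 ± 0.00868 CPM per kb, did not differ there beyond their spread. Among 14781 tested genes with a length, the mean level of Havcr1 per kb exceeded 7.38% in shCon and 62.2% in shCopa, and that of Timd2 exceeded 0.216% and 11.4%.

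The genes whose pattern over the 6 libraries was most like that of Havcr1 were sought on log2 CPM (prior count 2) centred on each gene's mean. The measure was the root mean square difference from Havcr1, so that size as well as shape counted. Among genes with a proper symbol the 6 nearest were Rsad2 (0.29), Oas3 (0.46), Ccl5 (0.51), Traf1 (0.52), Dthd1 (0.57) and Il2rb (0.59). Timd2 was at 0.97, the 40th of 14806 genes. Rsad2, an antiviral gene induced by interferon, had 3.81, 6.78 and 6.94 CPM in the 3 controls and 211, 211 and 283 CPM after the knockdown. Like Havcr1 it was highest in shCopa 3. Ccl5, a chemokine for T cells, had 0.464, 0.215 and 0.246 CPM against 7.65, 7.86 and 9.70 CPM. Il2rb, a chain of the interleukin-2 receptor, had 5, 0 and 2 counts in shCon and 119, 105 and 94 in shCopa, so its highest shCopa library in counts was replicate 1. Traf1, an adaptor of TNF receptors, and Dthd1 had 2 and 1 counts over shCon and 155 and 121 over shCopa, with counting intervals of the ratio of 22.3 to 681 and 22.5 to 5086. Where shCon is this low, the distance depends on the prior count. All 6 libraries enter both the choice and the values, so these are descriptions.

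**Figure D2:**
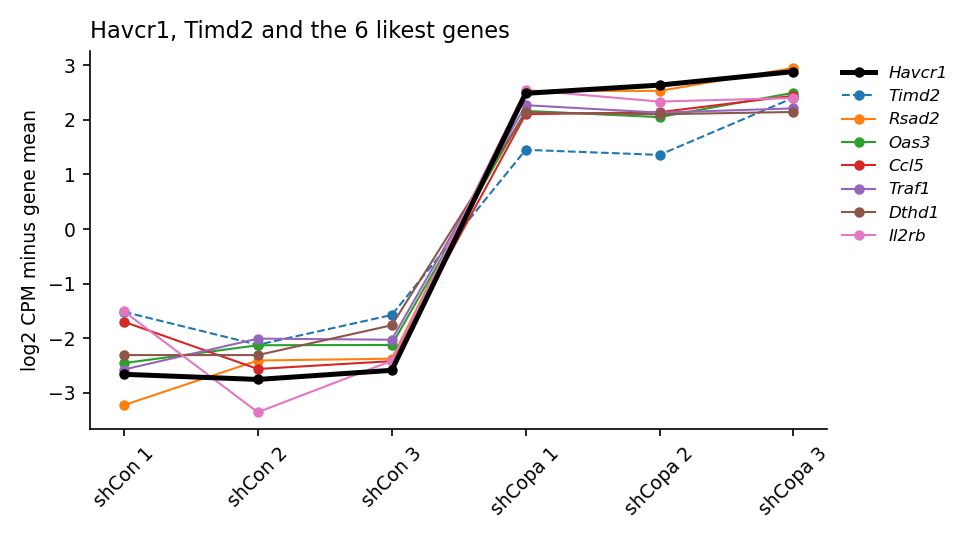
Log2 CPM minus each gene's mean over the 6 libraries (vertical axis) for Havcr1 (thick black line), Timd2 (dashed) and the 6 genes nearest to Havcr1, by library (horizontal axis). Rsad2, at a root mean square difference of 0.29, lies closest to Havcr1 among the genes drawn, and Timd2, at 0.97, lies farthest.

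Genes tied to the TIM receptors were described in 7 lists, tested with edgeR's quasi-likelihood test and Benjamini-Hochberg adjustment over all 14807 genes. In the whole series 36.5% of tested genes differed (adjusted p below 0.05), 18.2% higher and 18.4% lower in shCopa. Of 87 list genes 78 could be tested, and of these 18 rose, 22 fell and 38 did not pass (51.3% called). Their median log2 fold change was -0.15, beside -0.01 for all tested genes. Some low list genes passed the filter only through the group where they were high. Leaving out shCopa 1, 2 or 3 gave 8 rises each time. Leaving out shCon 1 gave 23 rises and 34 falls, and leaving out shCopa 2 or shCopa 3 gave 14 falls.

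Ligands of the family did not move together: of 6 ligands and 1 adaptor, 2 rose, 2 fell and 3 did not pass (list median -0.21). Among ligands of TIM-3, Lgals9, which encodes galectin-9, had 177, 147 and 134 CPM in shCon 1 to 3 and 233, 258 and 277 CPM in shCopa 1 to 3. It rose 1.68-fold (log2 fold change 0.75 ± 0.13, edgeR adjusted p = 0.00363), and the groups did not overlap. Ceacam1, an adhesion molecule described as another TIM-3 ligand, had 25.8, 31.7 and 39.1 CPM in controls and 12.7, 13.2 and 11.2 CPM in knockdown libraries. It fell to 38.4% of control (edgeR adjusted p = 0.000876). Hmgb1, a nuclear protein that binds TIM-3 when released, had a log2 fold change of -0.21 ± 0.09 and did not pass (edgeR adjusted p = 0.0932). Of the TIM-2 ligands, Sema4a, semaphorin 4A, fell by 0.47 ± 0.10 on the log2 scale (edgeR adjusted p = 0.00912). Fth1, the ferritin heavy chain, did not pass, at 1607, 1034 and 1001 CPM in shCon and 898 ± 67.3 CPM in shCopa (edgeR adjusted p = 0.112). Bag6, an adaptor that binds the TIM-3 tail, did not pass (log2 fold change -0.04 ± 0.08). Selp, P-selectin, an adhesion molecule for which TIM-1 on T cells is a ligand, had 1, 4 and 1 counts in shCon and 22, 23 and 17 in shCopa and rose at this low level (edgeR adjusted p = 0.00225; counting interval of the ratio 4.74 to 30.9). Selp passed the filter on low counts through its shCopa libraries. Without shCon 1, 4 genes of this list fell, as Hmgb1 and Fth1 then passed (log2 fold changes -0.16 and -0.18).

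Among 18 other receptors that bind phosphatidylserine, directly or through a bridging protein, 14 were tested, of which 6 rose, 3 fell and 5 did not pass. Their median log2 fold change was 0.69. Stab1, Mertk, Cd300lb, Scarf1 and Megf10 passed the filter on low counts through their shCopa libraries. The median and the count of rises therefore depend in part on the filter, and nothing is read from them. Stab1, a scavenger receptor for phosphatidylserine, had 0.232, 0.429 and 0.739 CPM in controls and 9.20, 9.93 and 10.9 CPM in knockdown libraries. It rose 20.9-fold (log2 fold change 4.38 ± 0.32, edgeR adjusted p = 0.000122). The other rises were Mertk, a receptor kinase of engulfment, from 0.164 ± 0.145 to 0.660 ± 0.0921 CPM, Cd300lb and Cd300a, lipid-binding receptors of myeloid cells (log2 fold changes 1.71 ± 0.44 and 0.95 ± 0.28), Ager (0.85 ± 0.25) and the integrin chain Itgav (0.53 ± 0.14). Each of these 5 calls failed when shCopa 1, 2 or 3 was left out, and Stab1 was then the 1 member that rose. Leaving out shCon 2 gave 3 rises, and with the replicate number as a block 2 genes rose. Axl, another receptor kinase of engulfment, had 289, 341 and 331 CPM in controls and 323, 335 and 338 CPM in knockdown libraries and did not pass (log2 fold change 0.05). The members that fell were the integrin chain Itgb5, to 45.2% of control (-1.15 ± 0.11), Lrp1, an endocytic receptor, to 48.5%, and Scarb1, the scavenger receptor SR-BI, to 81.5%. The call of Scarb1 was lost without any 1 library other than shCon 1.

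Of 5 secreted proteins that bridge phosphatidylserine to those receptors, 4 were tested, 3 fell, none rose and 1 did not pass (median -0.79). By DESeq2, and by edgeR at an unadjusted p under 0.05, 0 rose as well. Gas6, the ligand of the receptor kinases Axl, Mertk and Tyro3, had 1304, 931 and 891 CPM in controls and 486, 516 and 515 CPM in knockdown libraries, and fell to 48.5% of control (-1.04 ± 0.15, edgeR adjusted p = 0.00194). Pros1, protein S, a ligand of the same kinases, fell to 58.2% and Mfge8, which bridges the lipid to integrins, to 57.2%. The 3 calls held without any 1 library. Thbs1, thrombospondin 1, did not pass (-0.23), but fell without shCon 1 (-0.38).

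Of 15 genes that make or expose phosphatidylserine, 14 were tested, none rose, 3 fell and 11 did not pass (median -0.04). Among those that fell, Pisd, which converts phosphatidylserine to phosphatidylethanolamine, went to 74.0% of control and Ptdss2, a phosphatidylserine synthase, to 76.9%. Both calls failed with the replicate number as a block and when shCopa 1, 2 or 3 was left out, that of Pisd also without shCon 2 and that of Ptdss2 without shCon 3. The list had 0 falls with the block or without shCopa 2 or shCopa 3, and 1 without shCopa 1. The scramblases Xkr8 and Ano6, which bring the lipid to the outside, had log2 fold changes of 0.54 and 0.06 and did not pass. DESeq2 also called 0 rises, and by edgeR 1 gene was higher at an unadjusted p under 0.05.

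Of 11 genes of the engulfment machinery, 2 rose, 2 fell and 7 did not pass (median -0.15). Elmo1 and Dock1, whose products together activate the GTPase Rac during uptake, rose 1.53-fold and 1.40-fold, but neither passed when shCopa 1, 2 or 3 was left out, nor Elmo1 without shCon 3 or Dock1 without shCon 2. Rubcn, a regulator of phagocytosis linked to autophagy proteins, fell to 69.9%, and Crk, an adaptor upstream of Dock1, to 81.1%. The call of Crk was lost without any 1 library other than shCon 1 and shCon 2, and without shCon 1 the list had 6 falls.

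For shedding and signalling, 8 of 11 genes were tested, 2 rose, 2 fell and 4 did not pass (median 0.24). Adam10, a protease that cuts surface proteins, TIM-1 and TIM-3 among them, had 177, 227 and 245 CPM in controls and 121.3, 121.3 and 120.3 CPM in knockdown libraries. It fell to 56.0% of control (-0.84 ± 0.13, edgeR adjusted p = 0.00241). Its relative Adam17 did not pass (-0.29), but fell without shCon 1 (-0.40). Tec, a kinase of the family that acts in lymphocyte signalling, rose 2.11-fold from 9.06 ± 0.649 to 19.1 ± 1.08 CPM, and Fyn, a kinase that binds the TIM-3 tail, 1.27-fold, a call that failed when shCon 3 or any shCopa library was left out. Pik3r2, a regulatory subunit of PI3-kinase, fell to 59.9%. Lck and Vav1, which carry such signals in T cells, were too low to test. Without shCon 1, 4 genes of the list rose and 3 fell.

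**Figure D3:**
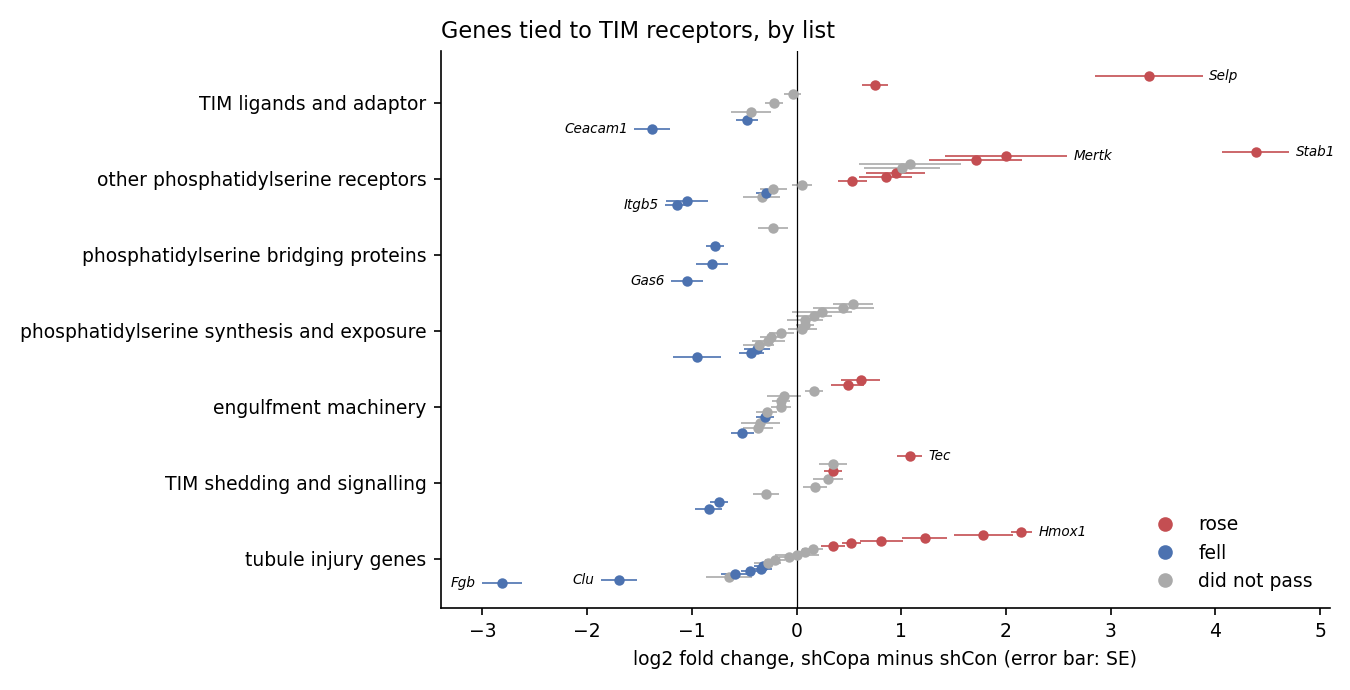
Fitted log2 fold change, shCopa minus shCon (horizontal axis, with SE bars), of the tested genes of 7 lists tied to TIM receptors; red rose, blue fell and grey did not pass edgeR's test, and some genes changed at least 2-fold carry their names. Stab1 at 4.38 lies farthest to the right, 3 of the 4 bridging proteins lie to the left in blue, and Fgg, with no count in shCopa, is not drawn.

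In injured kidney Havcr1 is a marker together with other genes, and 20 of these were examined here. They moved both ways: 6 rose, 7 fell and 7 did not pass (median -0.14). Hmox1, the stress-induced heme oxygenase, had 146, 131 and 131 CPM in controls and 564, 594 and 652 CPM in knockdown libraries and rose 4.43-fold (2.15 ± 0.10, edgeR adjusted p = 3.31e-05). Ccl2, a monocyte chemokine, rose 3.44-fold, with shCon 1 at 800.4 CPM and the other controls at 389.7 CPM each. Itgb6, an integrin chain, rose 2.34-fold, Tnc, a matrix protein, 1.75-fold, Vcam1, an adhesion molecule, 1.44-fold and Cdkn1a, a cell cycle inhibitor, 1.27-fold. Among the falls, Clu, clusterin, had 3544, 2454 and 2262 CPM in controls and 849.8, 883 and 821 CPM in knockdown libraries, 30.9% of control (-1.69 ± 0.17). Fgb, a fibrinogen chain, fell to 14.2%, and Fgg, another, had 40, 16 and 19 counts in shCon and 0 in every shCopa library, at least 23.7-fold lower against 3 counts over the group. Spp1, osteopontin, fell to 66.5%, and the epithelial keratins Krt18 and Krt8 to 73.7% and 79.3%. Stat3, a factor reported to act on the Havcr1 promoter in kidney, fell to 80.3% (edgeR adjusted p = 0.0249), a call lost without any 1 library other than shCon 1. Lcn2, lipocalin 2, a kidney injury marker like TIM-1, did not pass (-0.64 ± 0.22, edgeR adjusted p = 0.0543). It passed as a fall by DESeq2 (adjusted p = 0.0163) and by edgeR without shCon 1 (-0.33, adjusted p = 0.000154), shCon 2 (0.0476) or shCon 3 (0.0297). The calls of Cdkn1a, Krt8 and Tnc failed when shCopa 1, 2 or 3 was left out, those of Cdkn1a and Krt8 also without shCon 2 and that of Cdkn1a without shCon 3. Spp1 failed without shCopa 2 or shCopa 3, where the list had 4 falls.

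The TIM genes lie side by side, and the genes around them were examined in the order of the GENCODE M21 annotation, which is of an earlier build than the one named for the counts. The order is Havcr2, Timd2, Havcr1 and Timd4. Of the 9 other genes and pseudogenes annotated between Havcr2 and Timd4, 7 had no count in any library and the others had 3 and 3.66 counts in shCopa and none in shCon. None of the 3 protein-coding genes among them could be tested. The 8 protein-coding genes on the Havcr2 side had 2 tested members. Cyfip2, a regulator of actin assembly, rose 1.58-fold, a call that failed when shCon 2 or any shCopa library was left out, and Med7, a Mediator subunit next to Havcr2, did not pass (0.23 ± 0.15). On the Timd4 side 7 of 8 were tested and 4 rose. The genes nearest to Timd4 there, Sgcd and Rack1, did not show a call: Sgcd had no count and Rack1 did not pass (0.10 ± 0.20). Farther out, Irgm1, an interferon-induced GTPase, had 542, 536 and 530.2 CPM in controls and 1453, 1470.2 and 1643 CPM in knockdown libraries and rose 2.84-fold (1.51 ± 0.09, edgeR adjusted p = 5.91e-05). Beside it Gm5431 and Gm12185 rose 2.99-fold and 2.02-fold. Irgm1 belongs to a family of related GTPase genes. Its summed estimated counts were whole, at 37090 in shCon and 99440 in shCopa. Those of Gm5431 (140.74 and 395.32) and Gm12185 (315.11 and 603.25) were not. Whether reads of Irgm1, Gm5431 and Gm12185 were shared with each other or with related genes was not tested, so these rises may not be separate. Trim41, a ubiquitin ligase, rose 1.33-fold, a call lost without any 1 library other than shCon 1. In all, 5 of the 9 tested neighbours rose and none fell, where 18.2% of all tested genes rose. Leaving out shCon 2 or any shCopa library gave 3 rises, and leaving out shCon 1 gave 7, as Med7 and Rack1 then passed (0.41 and 0.38). DESeq2 called 0 falls among them too, as did edgeR at an unadjusted p under 0.05. The largest fitted change of a tested neighbour was 1.58 on the log2 scale (Gm5431), beside 5.58 for Havcr1.

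**Figure D4:**
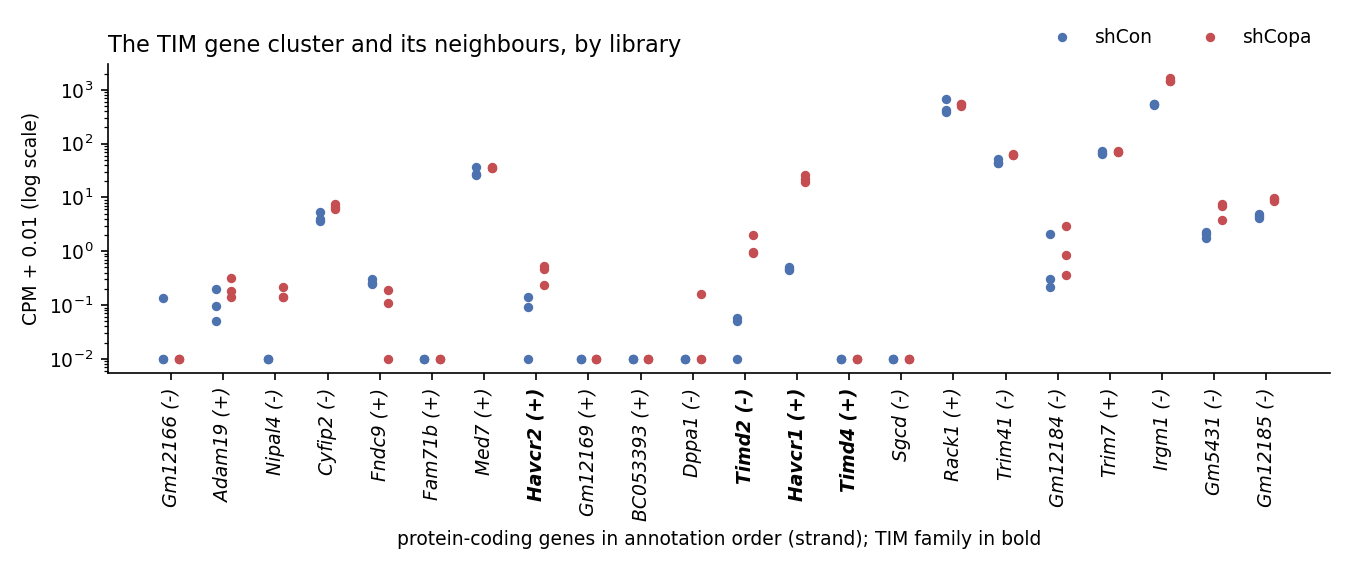
CPM plus 0.01 (vertical axis, log scale) of 22 protein-coding genes in and around the TIM cluster in annotation order (horizontal axis, strand in brackets), each point 1 library, shCon blue and shCopa red. Havcr1 and Timd2 show the widest gaps between groups, Timd4 and its neighbour Sgcd are at 0, and Irgm1 at the right is at 530.2 to 542 CPM in shCon and at 1453 to 1643 CPM in shCopa.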

How the data were processed

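Estimated counts for each Ensembl gene in 6 libraries are what the authors deposited, from libraries of TRIzol-extracted RNA, sequenced as read pairs on an Illumina instrument. The tools named per the submitters' processing notes are DESeq2, featureCounts, HTSeq, HISAT2 2.0.5 and Trimmomatic, with build GRCm39. What each tool did, which annotation was counted and whether strand was used is not given in the sources used here. Symbols were found for 52081 of 55414 identifiers in a GENCODE M21 table (GRCm38), which also gave transcript lengths and gene order. Promoters came from RefSeq (GRCm38.p6).

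Estimated counts were rounded. edgeR 4.0.16 in R 4.3.3 was run with TMM scaling, filterByExpr, robust quasi-likelihood fits and Benjamini-Hochberg adjustment (threshold 0.05) over 14807 genes. On simulated counts for 14807 genes, 75% of genes changed 2-fold and 95% of genes changed 4-fold were recovered, with 8 false calls among 178. Only 100 genes were changed at each fold, a far smaller share than was called in the data. The lowest genes were left out of the changed set, so these figures do not describe calls of genes near the detection limit. Alternatives were DESeq2 1.42.0, RLE size factors, no filter, a replicate block and leaving out each library. No replicate pair agreed within sampling noise (chi-square per degree of freedom 4.162 to 80.6).

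The members and gene lists were chosen with earlier results of these data known. Named are the TIM genes, Copa, list members and neighbours that passed, main ligands and the 6 genes most like Havcr1; some others were named after their values were seen. Some genes of the lists and neighbours are not reported here.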

Additional observations from a re-analysis of the deposited data

How the results depend on the processing

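The Havcr1 log2 fold change stayed between 5.47 and 5.67 with 1 library left out and between 5.55 and 5.59 under the other alternatives. Counts of calls moved more. With 1 library left out, 1778 to 4317 genes were higher and 1755 to 4122 lower in shCopa, 8 to 23 of the list genes rose and 14 to 34 fell, and 3 to 7 neighbours rose and none fell. The upper ends came from the fit without shCon 1, and the cause was not tested. With the replicate number as a block, 11 list genes rose and 15 fell, 4 neighbours rose, and 1964 genes were higher and 1939 lower over the series. Deviations from the group mean had r = -0.162, -0.0583 and -0.114 between libraries of the same number. Between libraries of different number they had r = -0.113 to 0.225. With 3 libraries per group, 1 of which stood apart, this check cannot show whether libraries of the same number share more than a number. Of 52 named genes with a call, 32 kept it under all 10 alternatives; DESeq2 lost 0, RLE size factors 1, no filter 4 and the block 15. No call changed direction. Depth limits Havcr2, Timd2 and Timd4 most, since 3 counts are 0.123 to 0.152 CPM.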

Other observations

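The unnamed gene model Gm19410 had the pattern nearest to Havcr1 over the 6 libraries when genes without a proper symbol were included, at a root mean square difference of 0.27. Its controls held 0, 0 and 1 counts, against 60, 61 and 93 in the knockdown libraries. Like Havcr1 and Timd2, it was highest in shCopa 3.

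Havcr1 is a marker of injured kidney tubules, so 6 markers of the proximal tubule were also looked at, which summed to 57.3 to 114 CPM in shCon and 107 to 112 CPM in shCopa. Slc34a1, Slc22a6 and Kap had no count in any library, and Slc5a2 did not exceed 0.0505 CPM. Cubn, the endocytic receptor cubilin, rose from 3.47 ± 1.44 to 11.3 ± 1.15 CPM (log2 fold change 1.70 ± 0.31, edgeR adjusted p = 0.00479). Most of the sum was Lrp2, its partner megalin, at 90.1 ± 30.1 CPM in shCon and 98.2 ± 1.53 CPM in shCopa. Lrp2 did not pass (0.12). The 6 hepatocyte markers summed to 8.37 to 13.3 CPM and 22.9 to 24.1 CPM in the same order. Most of that sum was Alb, albumin, which rose from 9.90 ± 1.86 to 22.7 ± 0.650 CPM (edgeR adjusted p = 0.00107), and Cyp3a11 had no count.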
